A study of Saccharomyces cerevisiae with 64 samples.

Results

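The passage of control cells of budding yeast, Saccharomyces cerevisiae, through an undisturbed S phase was followed in 12 of the 64 libraries of the series. These were chosen by their labels as the no OE time course, and they are deposited as 3 columns of signal along chromosomes I to XVI, 1 for each of 3 pulses of BrdU. Each pulse has 2 immunoprecipitated libraries and 2 Input libraries behind it. A column combines the libraries of its pulse, so no spread between replicates could be computed. Every comparison is therefore a comparison of 2 columns by size, with no test, and a call is a change of at least 2-fold.

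The no OE strain is labelled WT pGAL: it carries the galactose promoter vector without the forkhead gene that other strains of the series overexpress. Cells selected for a plasmid on medium without uracil were grown in raffinose at 25 °C and held in G1 with 7.5 nM α-factor, the mating pheromone, for 3 h. They then spent 2 h in 2% galactose with the pheromone, which the control received as the overexpressing strains did. Release into S phase was in galactose with Pronase E, a protease that destroys the pheromone, and no drug was added. BrdU, a thymidine analogue, was given at 800 µg/mL from 20 to 35 min, from 30 to 45 min or from 40 to 55 min after release. DNA made during the pulse was recovered with an antibody to BrdU after barcoded samples had been pooled, an order of steps meant to keep yields comparable between samples. Neighbouring pulses share 5 min, and each is called here by the minute it ended.

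Eukaryotic chromosomes are copied from many origins. In budding yeast an origin is a short autonomously replicating sequence (ARS) that binds the origin recognition complex, and the MCM helicase is loaded on it in G1. Origins fire in a reproducible programme, in which centromeric regions are known to be early and silent regions near the telomeres late. A pair of forks leaves each fired origin, and DNA between origins is copied passively by forks that arrive from either side.

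Signal, given in relative units for each 50 bp bin of the R64 genome build, rose and spread from pulse to pulse. The mean over the nuclear chromosomes outside the ribosomal DNA was 0.0395 at 35 min, 0.152 at 45 min and 0.232 at 55 min, so it was 3.86 times higher at 45 than at 35 min and 1.52 times higher at 55 than at 45 min. The median bin went from 0.00875 to 0.0712 and 0.243. The 10% of bins with the most signal held 64.6% of it at 35 min, 36.6% at 45 min and 15.9% at 55 min. Put as area, 50% of the signal lay in 6.08%, 15.1% and 36.1% of the genome. The signal thus started in few places and was spread most widely, though not evenly, in the last pulse. Mitochondrial DNA, which is copied outside the S phase programme, had a mean of 0.0497, 0.0360 and 0.0247 in the same columns.

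Direction depends on that scale. Dividing each column by its nuclear total multiplies every 45 to 35 min ratio by 0.259 (a log2 shift of -1.95) and every 55 to 45 min ratio by 0.657 (-0.61). Dividing by the mitochondrial mean multiplies them by 1.38 (0.46) and 1.46 (0.54). Values below are as deposited unless stated. The depth of each library is unknown, and the labels do not say how Input entered the values. Many low values at 35 min are ties: the 232161 bins with signal held 28256 distinct values, and the most frequent of them filled 5672 bins. Ratios of the lowest regions are coarse for that reason.

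In 1 kb tiles, 10288 of 11555 were higher at 45 than at 35 min, which is 89.0%, and 14 were lower (0.121%). From 45 to 55 min 66.1% of 11575 tiles were higher and 5.69% were lower. The median tile was 6.02 times higher in the first step and 3.40 times higher in the second. Tiles that were higher in both steps made up 58.7%. With each column divided by its total, 4337 tiles were higher and 1161 lower in the first step, and 6210 and 1439 in the second. As deposited, 9549 of 11615 tiles had their highest signal at 55 min, 2060 at 45 min and 6 at 35 min.

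Origins were placed without the time course, from the no OE column of cells held in hydroxyurea. That drug starves cells of deoxynucleotides, so that early origins fire and their forks hardly advance. This column comes from 6 other libraries (0.2 M hydroxyurea and 400 µg/mL BrdU for 60 min). A peak of the 1 kb running mean counted as an origin if it reached 3 times the nuclear median, lay at least 5 kb from a higher one and lay outside the ribosomal DNA array (XII 451575 to 489469). There were 238. The lowest of them stood at 3.01 times the median and the highest peak left out at 2.99 times, with 143 peaks between 2 and 3 times. Sorted by signal in hydroxyurea, they formed an early group of 80, a middle group of 79 and a late group of 79. The names describe rank in hydroxyurea alone. Of the 238 peaks, 38 stood under 4 times the median, and whether such faint peaks fire as origins was not tested. Of these peaks, 11 lie within 5 kb of a chromosome end and 1 is at URA3, where reads can be shared with other copies or with a plasmid.

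Early origins were already bright in the first pulse, rose little in the second and fell in the third. Their median signal in a 2 kb window was 0.381 at 35 min, 0.537 at 45 min and 0.201 at 55 min. Middle origins went from 0.118 to 0.355 and 0.271. Late origins went from 0.0310 to 0.155 and 0.298, so as deposited the late group alone was highest in the last pulse. At 35 min the 80 early origins ranged from 0.149 to 0.595 and the 79 late ones from 0.00116 to 0.224, and the groups overlapped. By 55 min the order of the medians was turned round, but the ranges overlapped. Early origins lay between 0.135 and 0.286, within the range of the late ones, 0.0642 to 0.511. The highest late value is that of the peak at the right end of IX.

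**Figure D1:**
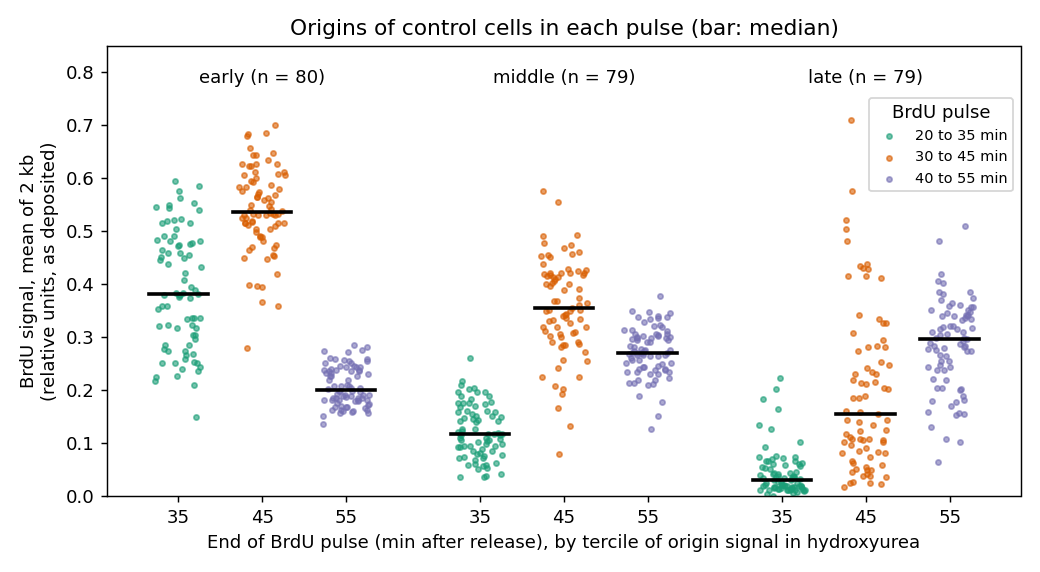
BrdU signal (relative units, mean of 2 kb) of each of the 238 origins in the 3 pulses, by tercile of signal in hydroxyurea; a point is an origin and a bar is the median of its group. The early medians run 0.381, 0.537 and 0.201 and the late medians 0.0310, 0.155 and 0.298, so the groups change places between the first and the last pulse.

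From 35 to 45 min, 156 of 238 origins (65.5%) were higher and 0 were lower, beside 89.0% and 0.121% of all tiles. After division by the nuclear total 14 were higher and 81 lower. The median ratio was 2.59, less than the 6.02 of all tiles, and 235 origins were above 1. The early group had a median ratio of 1.37 with 9 origins called higher, the middle group 2.90 with 76 and the late group 5.61 with 71. With that division these medians became 0.355, 0.753 and 1.46, so the first 2 turned to falls. With mitochondrial scaling they were 1.89, 4.01 and 7.74.

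From 45 to 55 min, 36 origins were higher and 76 lower, beside 66.1% and 5.69% of tiles, and 159 of 238 were below 1. The early group fell to 0.384 times, with 68 of 80 origins called lower and 0 higher. Middle origins were at 0.743 times with 4 lower, and late origins at 1.84 times with 36 higher and 4 lower. With division by the total 22 of the 238 origins were higher and 130 lower. The group medians were then 0.252, 0.488 and 1.21, and with mitochondrial scaling 0.559, 1.08 and 2.68, so the direction of the middle group depends on the scale.

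To order the genome by time, each place was given a weighted time, the mean of the pulse midpoints (27.5, 37.5 and 47.5 min) weighted by the signal in each pulse. It is an index of order between those bounds, not a measured time of firing. Over tiles it ran from 34.1 to 47.5 min with a median of 44.6 min, and the middle 50% of tiles lay between 42.6 and 45.5 min. Early origins had a median of 35.9 min, middle origins 39.4 min and late origins 42.7 min, a gap of 6.83 min from early to late. Among the 51 peaks of another hydroxyurea control, that of the RNR3 experiment, the gap between terciles was 0.812 min. They are not a like set to the 238. From 45 to 55 min 88.2% of them were lower and 0% higher, a course like that of the early group. Across the 238 origins, signal in hydroxyurea and weighted time had a Spearman rho of -0.929 and a Pearson r of -0.916. The libraries of the 2 measures differ, while the strain and the positions are shared. Signals of the first and second pulse were also alike in rank over origins (rho 0.922), but those of the first and the last were opposed (rho -0.500). As deposited, 78 of 80 early origins were highest at 45 min, as were 66 of 79 middle and 14 of 79 late ones. The other 65 late ones, 82.3%, were highest at 55 min, beside 82.2% of all tiles, so the late group did not differ from the genome in this. Which pulse is highest depends on the scale. After division by the nuclear total, 70 of the 80 early origins were called lower at 45 than at 35 min.

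The earliest origin by this index lay between HOG1, the MAP kinase of the osmotic stress response, and the RNA gene YNCL0007W (XII 371976 to 373975). It had 0.576 at 35 min, 0.535 at 45 min and 0.163 at 55 min, a weighted time of 34.3 min. It was 1 of 3 origins whose signal did not increase from the first to the second pulse, and the other 2 are at the left ends of chromosomes XI and I. The next lay between CRF1 and HTB1, a histone H2B gene (IV 912676 to 914675), with 0.540, 0.540 and 0.157. It was followed by the origin between YNCJ0019C and NOP9, a ribosome biogenesis gene (X 416126 to 418125), with 0.515, 0.531 and 0.158. Next came ARS306 (III 73626 to 75625), with 0.585, 0.623 and 0.180. The origins beside IFM1, a mitochondrial translation factor gene (XV 276726 to 278725; 0.550, 0.608 and 0.168), and between the sterol regulator gene ECM22 and CDC42, the polarity GTPase gene (XII 602076 to 604075; 0.595, 0.626 and 0.194), completed the first 6. All 6 had 0.515 to 0.595 at 35 min, far above the median bin, and 0.157 to 0.194 at 55 min, below it. The 6 were chosen by an index of these same values, so this is no separate result.

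Other well-studied origins were placed by their approximate map position. ARS607 (VI 198276 to 200275) had 0.521, 0.583 and 0.162 and ranked 8 of 238. ARS305 on chromosome III had 0.544, 0.623 and 0.199 and ranked 15. ARS606, beside the tRNA gene SUP11, had 0.459, 0.683 and 0.169 and ranked 28. ARS315, inside YIH1, had 0.475, 0.595 and 0.197 and ranked 31. ARS416, the origin beside TRP1 long used in plasmids, had 0.337, 0.700 and 0.238 and ranked 54. It was the single one of these called higher from 35 to 45 min (2.08 times), and this becomes 0.539 times after division by the total. All 6 named origins were called lower from 45 to 55 min, at 0.247 times (ARS606) to 0.340 times (ARS416).

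ARS501, ARS603 and ARS609, which had no peak in hydroxyurea, followed another course. ARS501 (V 548001 to 550000) had 0.0110, 0.107 and 0.263 and a weighted time of 44.1 min, later than 41.3% of tiles. ARS603 (VI 68001 to 70000) had 0.00616, 0.0583 and 0.247 and stood at 45.2 min. ARS609 (VI 255001 to 257000) had 0.00833, 0.0482 and 0.188 and stood at 44.9 min. Their signal rose in both steps, as it did at most tiles, and none can be told from passively copied DNA by these values.

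At the other end of the order, the 6 latest origins were faint peaks inside genes. On X (714076 to 716075), signal inside DAN4, which encodes a mannoprotein of the cell wall, went from 0.0119 to 0.0250 and 0.279, with a weighted time of 46.0 min. The peaks inside YBL100W-B (II 33726 to 35725; 0.00116, 0.0387 and 0.202) and YER138C (V 447826 to 449825; 0.00374, 0.0379 and 0.189) are in Ty retrotransposon genes. FLO5, a flocculin gene with close relatives, held the next (VIII 526426 to 528425; 0.00760, 0.0429 and 0.255). These 4 genes have repeated or near-identical sequence, so their values are uncertain. SIM1, a cell wall gene (IX 127826 to 129825; 0.0181, 0.0624 and 0.370), and INO80, which encodes a chromatin remodelling ATPase (VII 224526 to 226525; 0.0196, 0.0584 and 0.339), complete the 6.

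Some origins of the late group were bright at 45 min. The highest was inside MDM38, a mitochondrial membrane protein gene (XV 271276 to 273275), with 0.224, 0.711 and 0.322, and it lies 5.45 kb from the early origin beside IFM1. The next was inside STU2, a microtubule polymerase gene (XII 235626 to 237625; 0.202, 0.575 and 0.277), 5.30 kb from an early origin. The 26 late origins within 20 kb of an early one had medians of 0.0575, 0.338 and 0.322 and a weighted time of 41.3 min, and 13 of them were highest at 45 min. The other 53 had 0.0210, 0.106 and 0.273 and 43.5 min, and 1 of them was highest at 45 min. Near an early origin, DNA made at a late origin and DNA made by forks passing over it cannot be told apart here.

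Fork spread was measured on flanks of 198 origins with no other hydroxyurea peak and no chromosome end within 20 kb. These were 96 flanks of early, 114 of middle and 95 of late origins. Local maxima of the 45 min pulse without such a peak were not excluded. One at XVI 857526 to 859525 lies 15.9 kb from the nearest peak. The half-height distance is where the signal, less the lowest value of the flank, drops to 50% of its maximum on that flank. Its median was 3.75 kb at 35 min, 7.88 kb at 45 min and 11.7 kb at 55 min, over the 288, 272 and 218 flanks where the level was reached. From 35 to 45 min it moved outward on 256 of 272 flanks by a median of 3.85 kb (quartiles 2.07 and 5.60 kb). From 45 to 55 min it moved outward on 169 of 194 flanks by 3.89 kb (quartiles 0.80 and 7.16 kb). Flanks of 1 origin share a source and are not replicates.

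Signal moved away from early origins as a wave. Their half-height distance was 4.60 kb at 35 min and 9.89 kb at 45 min, and it moved out on 95 of 96 flanks by a median of 5.50 kb. At 55 min only 42 of 96 early flanks reached the level within 20 kb, with a median of 16.7 kb, and 41 of those 42 moved out, by 7.47 kb. The median over flanks of the place of the maximum went from 0.25 kb to 2.25 kb and 13.75 kb. Middle origins had distances of 3.62, 7.49 and 11.9 kb and late origins 2.61, 5.13 and 6.33 kb. The late distances are less certain. On 15, 22 and 18 of the 95 late flanks the level was not reached. Their maximum often lay away from the peak, with an upper quartile of 10.25 kb at 45 min. It moved outward on 26 of 95 late flanks in the first step and on 48 in the second. Whether forks of late origins spread less was not tested. In the median profile the 55 min signal exceeded the 45 min signal from 11.75 kb outward at early origins, from 4.25 kb at middle origins and at every distance at late ones. At 10.25 kb from early origins the profile rose from 0.0342 to 0.350 and then held 0.321, while at the origin itself it went from 0.390 to 0.547 and 0.202. No fork rate was computed, since a pulse spans 15 min and the 20 kb flank cuts off the farthest forks.

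**Figure D2:**
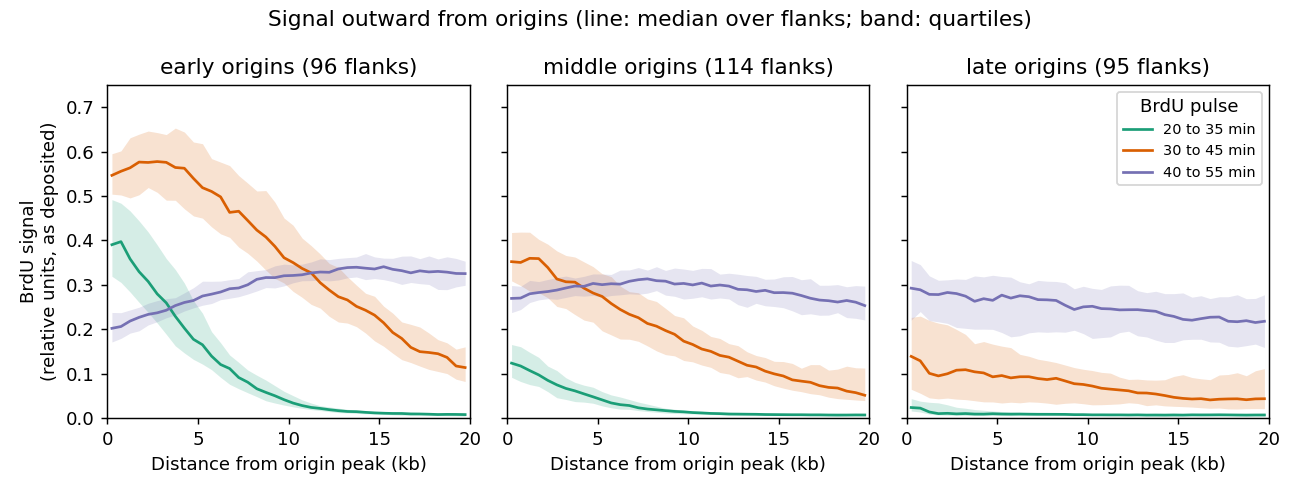
BrdU signal (relative units) against distance from the origin peak (kb) on flanks with no other hydroxyurea peak within 20 kb, by tercile. Lines are medians over flanks and bands their quartiles. At early origins the 35 min signal is highest beside the origin and that of 45 min at 2.75 kb. The 55 min signal is lowest at the origin, 0.202, and exceeds that of 45 min from 11.75 kb.

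Distance from an origin ordered the tiles in the first and second pulse. Tiles within 1 kb of an origin had medians of 0.129, 0.397 and 0.251 in the 3 pulses. At 5 to 10 kb they had 0.0245, 0.238 and 0.296, and at 10 to 15 kb 0.010, 0.135 and 0.297. The ratio of 45 to 35 min was highest in that last class, with a median of 12.3 against 2.69 within 1 kb. Tiles at 20 to 30 kb had 0.00659, 0.0323 and 0.216, and theirs was the highest ratio of 55 to 45 min, 6.26. Beyond 50 kb the medians were 0.00644, 0.0253 and 0.164, close to those at 30 to 50 kb (0.00681, 0.0256 and 0.163). The share of tiles lower at 55 than at 45 min was 31.2% within 1 kb, 5.08% at 5 to 10 kb and 0 of 1429 tiles at 10 to 15 kb, so the called falls lay near origins.

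**Figure D3:**
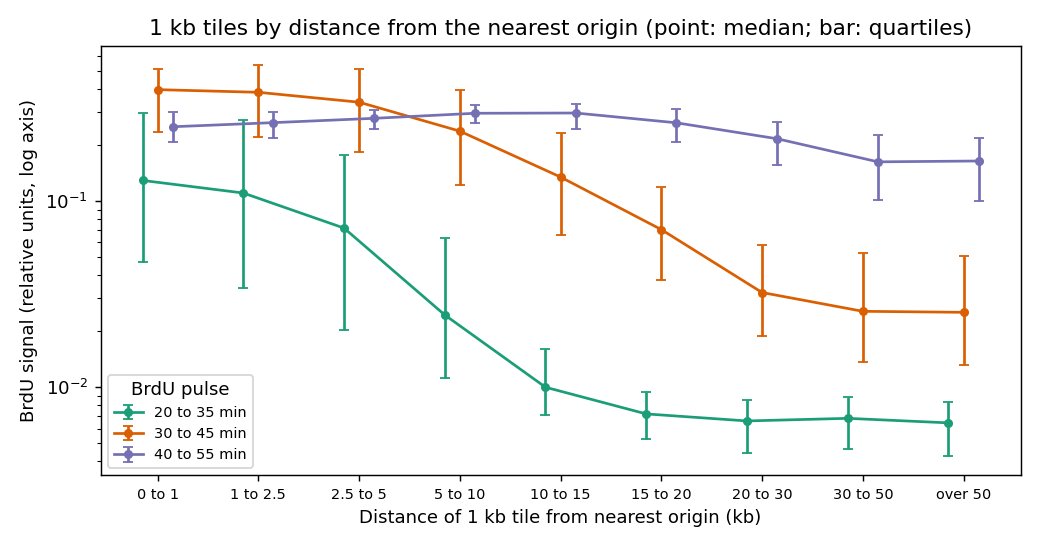
Signal of 1 kb tiles (relative units, log axis) by distance from the nearest origin (kb) in the 3 pulses; points are medians and bars quartiles. The 35 min medians drop from 0.129 to 0.00644 and the 45 min medians from 0.397 to 0.0253, whereas those of 55 min stay between 0.163 and 0.297.

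Where the last DNA between origins was copied was read from 180 intervals of at least 10 kb between neighbouring origins. The latest tile of an interval had a median weighted time of 42.1 min in 34 intervals of 10 to 20 kb, 44.8 min in 52 of 20 to 40 kb, 46.2 min in 58 of 40 to 80 kb and 46.4 min in 36 of 80 kb or more. Interval length and that time had a Spearman rho of 0.820. That time is a maximum over more tiles in a longer interval, so it can rise with length for that reason alone. Neighbouring refers to peaks in hydroxyurea, and long intervals can hold local maxima of the 45 min pulse. One lies at IV 702826 to 704825, between the origins at IV 555625 and 878075. At 55 min the latest tile had 0.339, 0.322, 0.211 and 0.159 in the same classes, so its signal was lowest in the longest gaps. Its place went with the weighted times of the neighbours, which is partly built in. Counted from the earlier origin, it lay at 0.595 of the interval in the median and past the middle in 133 of 180. The length classes differed in this: it lay at 0.908 and past the middle in 33 of 34 intervals of 10 to 20 kb, but at 0.336 and past the middle in 15 of 36 of 80 kb or more. Where the origins differed by at least 4 min in weighted time it lay at 0.791 and past the middle in 61 of 70. Where they differed by under 1 min it lay at 0.495 and past the middle in 15 of 32. The weighted times of the origins and of the tiles between them come from the same columns. A latest tile therefore leans to the later origin by construction, and these shares are no separate result. From III 204425 to 224175 the latest tile lay at 0.996, where tile and later peak stood at 44.34 and 44.35 min. Places in long intervals are uncertain. From XII 794075 to 1065025 the latest tile had 0.134 at 55 min. The stretch XII 837001 to 870000 within that interval had less, 0.0437, but a weighted time of 43.9 min.

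**Figure D4:**
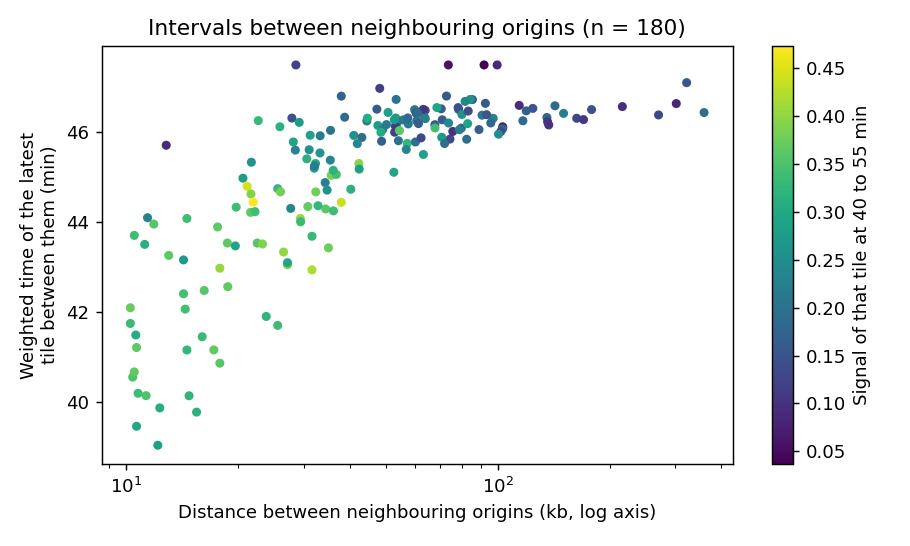
Weighted time (min) of the latest 1 kb tile of each of 180 intervals against the distance between its 2 origins (kb, log axis); colour is the signal of that tile at 55 min (relative units). The medians rise from 42.1 min for intervals of 10 to 20 kb to 46.4 min for those of 80 kb or more.

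The 5% of tiles with the latest weighted time, 46.1 min or more, formed 35 zones of at least 5 kb on 15 chromosomes, 258 kb in all. Their 581 tiles had medians of 0.00297, 0.0144 and 0.166, against 0.00873, 0.0717 and 0.243 for all tiles. The middle of a zone lay a median of 27.7 kb from the nearest origin, and 7 zones were within 30 kb of a chromosome end. Of the tiles 16.4% were that close to an end, against 6.50% of all tiles. The longest spans 16 kb on X (572001 to 588000), with 0.00469, 0.0141 and 0.201. It holds 16 genes, among them CDC11, a septin gene, BIR1, a gene of the chromosomal passenger complex, and STE18, a pheromone signalling gene. A zone of 11 kb on XIV (515001 to 526000; 0.00202, 0.0150 and 0.163) holds POR1, the mitochondrial porin gene. It also holds YNL054W-A and YNL054W-B, which are Ty retrotransposon genes, so its values are partly uncertain. Another zone of 11 kb on XII (258001 to 269000; 0.00465, 0.0152 and 0.210) holds FRS1, a tRNA synthetase gene. The other zone of 11 kb, on V (24001 to 35000; 0.00554, 0.0197 and 0.233), holds CAN1, the arginine permease gene.

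The remaining long zones spanned 10 kb. One lies by the left end of III (5001 to 15000; 0.00320, 0.00562 and 0.162) and holds HML, a silent copy of the mating type genes. One near the right end of I (219001 to 229000; 0.000161, 0.000475 and 0.0459) holds PHO11, an acid phosphatase gene. Only 67.0% of the bins of the PHO11 zone and 89.0% of the HML zone had signal in any pulse, and both hold sequence with near copies elsewhere, so their values are uncertain. The others lie on XIII (57001 to 67000; 0.00266, 0.0125 and 0.161) with NUP188, a nuclear pore gene, on XIV (747001 to 757000; 0.00195, 0.0134 and 0.148) with DSE4, a daughter cell glucanase gene, and on XIII (780001 to 790000; 0.00337, 0.0174 and 0.199) with TIF11, a translation initiation gene. In each of these 9 zones the 55 min signal was the highest of the 3 by more than the other 2 together. The choice by latest weighted time makes this so, and it is no separate result.

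Low signal in all pulses was examined as well. The 5% of tiles with the lowest sum over the 3 pulses formed 33 zones of 489 kb, with tile medians of 0.00528, 0.00942 and 0.0501. They lay a median of 51.4 kb from an origin. The longest was 33 kb on XII (837001 to 870000; 0.00544, 0.00909 and 0.0437) and holds ILV5, of branched-chain amino acid synthesis, and STE11, a MAP kinase kinase kinase gene. The next were 27 kb on XV (801001 to 828000) and 26 kb on VII (1022001 to 1048000). Both sets shared 51 tiles, 8.78% of each, where each set holds 5% of all tiles. The weighted time of such tiles is drawn earlier by the near-background signal of the first pulse, 43.9 min in the zone on XII. At 55 min 1611 tiles (13.9%) were below 0.122, which is 50% of the median, and 85.7% of those were over 20 kb from an origin, against 44.7% of all tiles. Whether such DNA was copied after 55 min or in fewer cells was not tested, since no later pulse was analysed.

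Centromeric regions were early. The 623 tiles within 20 kb of a centromere had medians of 0.132, 0.486 and 0.284 and a weighted time of 39.2 min, against 44.7 min for the 10197 tiles outside all named regions. Of the centromeric tiles 80.4% were, as deposited, highest at 45 min, and 37.9% were lower at 55 than at 45 min. They lay a median of 3.8 kb from an origin, against 18.8 kb elsewhere, so nearness to an origin goes with the class and its part was not tested. The centromere of chromosome II was the earliest, with 0.328, 0.586 and 0.217 and 36.5 min, and that of VI the latest, with 0.0234, 0.252 and 0.344 and 42.7 min. The tile at the centromere of VI was still earlier than the median tile. Of the 45 origins within 20 kb of a centromere 30 were of the early group, 9 middle and 6 late, and their median weighted time was 36.9 min.

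Chromosome ends varied widely. The 755 tiles within 30 kb of an end had medians of 0.00692, 0.0482 and 0.212 and a weighted time of 45.0 min, 0.339 min later than other tiles. The right ends of XIII and IX stood apart at 41.0 and 41.8 min, with means of 0.0986, 0.385 and 0.311 and of 0.145, 0.372 and 0.306. The right end of I was the latest at 47.5 min (0.000921, 0.00973 and 0.0850), from 14 tiles with enough mapped bins. The 40 tiles within 20 kb of the ribosomal DNA had 0.0101, 0.130 and 0.300 and a weighted time of 44.2 min, against 44.7 min for other tiles.

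**Figure D5:**
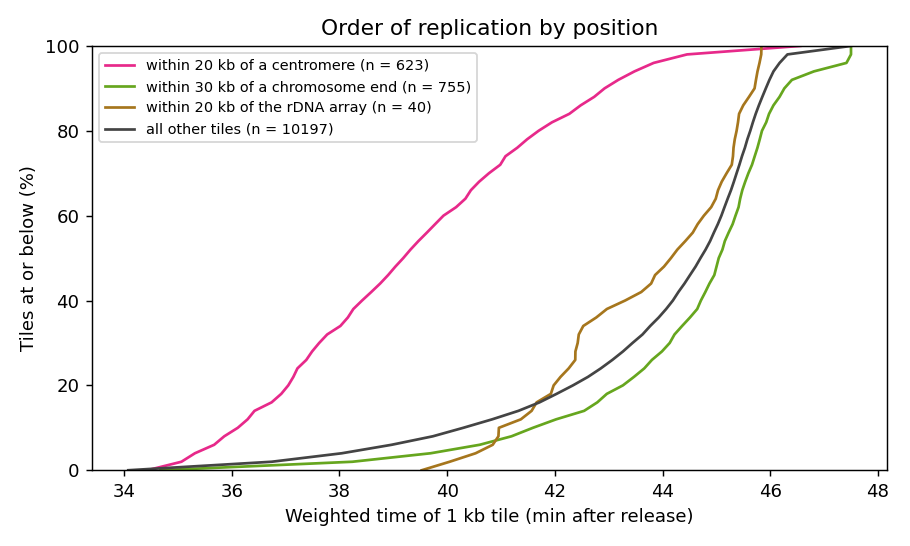
Share of 1 kb tiles (%) at or below each weighted time (min) for 4 position classes; each line is 1 class. The centromeric line lies to the left of the others, with a median of 39.2 min against 45.0 min for chromosome ends and 44.7 min for other tiles.

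Whole chromosomes differed less than regions within them. Chromosome III was the earliest, with a median tile time of 43.1 min, then V at 43.7 min, and XIV was the latest at 45.1 min, after IV at 44.9 min. IV had the lowest median tile signals at 45 and 55 min, 0.0385 and 0.203, against 0.0440 and 0.217 for XIV. Near-background signal of the first pulse draws the index earlier, so the order of IV and XIV is uncertain. The quartiles within III were 39.5 and 45.4 min, wider than the spread between chromosomes. III holds 3.16 origins per 100 kb, behind I (3.91) and VI (3.33), and IV holds the fewest of the 16 chromosomes, 1.11.

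The histone genes, which are expressed in S phase, lay mostly in early DNA. HTA1 and HTB1 on IV (914317 to 915928) had 0.487, 0.601 and 0.175 and 35.0 min, earlier than all but 0.387% of tiles. HHT1 and HHF1 on II (255373 to 256741) had 0.428, 0.642 and 0.193 and 35.6 min, and HTA2 and HTB2 on II (235394 to 236887) had 0.358, 0.603 and 0.202 and 36.2 min. These 3 pairs lie 1.18 to 1.53 kb from an origin peak. HHT2 and HHF2 on XIV (575640 to 577038), 15.4 kb from one, had 0.0118, 0.255 and 0.370 and 43.1 min. The mating type loci on III were late. HMR (293179 to 294321) had 0.00288, 0.0111 and 0.105 and 46.1 min. MAT stood at 45.9 min and HML at 46.8 min, but only 10.7% and 21.4% of their bins had signal, and the loci share sequence.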

How the data were processed

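Signal was deposited as 1 value per 50 bp bin, and each deposited column combines the libraries of a pulse. Per the labels' protocols, DNA was sheared to about 300 bp and ligated to barcodes, and the barcoded DNAs were mixed, with 20 ng of the mix reserved for Input and 1 µg for immunoprecipitation. Bowtie2, SAMtools, bedtools and build R64 are named in the submitters' processing notes, which give no order; no source used here describes the step from reads to signal. The design allowed for a count test, but no counts per library were analysed here, so changes were called by size.

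Bins at 0 in all 3 pulses and the ribosomal DNA were left out (232161 of 241434 nuclear bins used), and a tile needed signal in 50% of its bins. The members and gene lists were chosen with earlier results of these data known. Named were the 6 earliest and 6 latest origins, well-studied ARS elements, at a peak within 3 kb or, for ARS501, ARS603 and ARS609, which had none, at their map position (their and the centromeres' approximate positions are textbook knowledge; ARS1012 was not placed), the longest zones, the histone genes and the mating type loci. Gene names come from RefSeq's R64 table, the build of the files. Alternatives were total and mitochondrial scaling, tile size, window, fold, peak set, flank length and zone rule. Python 3.11.15, numpy 2.4.6, pandas 2.3.3, scipy 1.17.1 and matplotlib 3.10.9 were used, and the scripts were checked on simulated data.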

Additional observations from a re-analysis of the deposited data

How the results depend on the processing

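The calls, the order gap, fork spread, zones and position classes were recomputed, each under the alternatives listed for it, and of 75 such values 51 stayed within 1.5 times the reported one, as did 12 of 24 ratios of the named ARS elements. Dividing columns by the nuclear total left 37.5% of tiles higher and 10.05% lower from 35 to 45 min, and 12.4% lower from 45 to 55 min. For origins it gave 5.88% higher and 34.0% lower, then 9.24% higher and 54.6% lower. It turned ARS416 from 2.08 to 0.539 times, set chromosome ends 0.586 min after other tiles, and kept 379 of the 581 latest tiles. Under mitochondrial scaling 0.0260% and 1.62% of tiles were lower in the 2 steps, and 14.3% of origins were lower in the second. A 1.5-fold call gave 0.208% and 10.1% of tiles lower, 2 kb tiles 0.0691% and tiles without the lowest decile 0.0383% in the first step. The 140 peaks of at least 10 times the median were 0% higher and 50.7% lower from 45 to 55 min. The 51 peaks of the control of the RNR3 experiment were 3.92% higher in the first step, and 0% higher and 88.2% lower in the second. Their outer terciles by signal in hydroxyurea were 0.812 min apart. The latest 10% of tiles made 86 zones of 657 kb, and the lowest sums, chosen after seeing the data, 489 kb. No paired analysis was possible because each deposited column combines the replicates. For the same reason no replicate could be left out, and no error can be given for any value. Depth per library is unknown, so the lowest 35 min values limit the ratios and the weighted times built on them. The pulse of highest signal, the intervals, distance classes, single chromosomes, loci and kinds of gene were not recomputed.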

Other observations

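Local maxima of the 45 min pulse were also found far from the origins placed in hydroxyurea. This search was designed after the values were seen. A maximum of the 3 kb running mean counted if it reached the nuclear median and stood at least 2-fold above the lowest values within 15 kb on both sides. Of 161 such maxima, 67 lay within 2 kb of an origin, 34 lay 2 to 10 kb away and 60 lay farther. The 60 had median signals of 0.0147, 0.126 and 0.272 at 35, 45 and 55 min and a weighted time of 43.8 min, and 46 of them had under 1.5 times the nuclear median in hydroxyurea. The highest was inside KRE6, a cell wall glucan synthesis gene (XVI 857526 to 859525), with 0.0303, 0.341 and 0.354 and a hydroxyurea signal of 0.991 times the median. It lies 15.9 kb from the nearest origin peak. The next were inside YKL097C (XI 257726 to 259725; 0.0532, 0.301 and 0.354) and between ELO1, a fatty acid elongase gene, and CDC6, a gene of MCM loading (X 67926 to 69925; 0.0356, 0.259 and 0.311).

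By kind of gene, 270 tRNA genes had a median weighted time of 42.5 min (quartiles 39.3 and 44.9 min), against 44.6 min for 5846 protein-coding genes (quartiles 42.7 and 45.5 min) and 44.5 min for 76 snoRNA genes. These values describe the tiles the genes lie in, and genes that share a tile share its value.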
